A study of Mus musculus with 9 samples.

Results

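Cholesterol synthesis and its control by sterol regulatory element-binding proteins (SREBPs) were described in neuronal nuclei of the mouse hippocampus. The set held 32 genes of 48709 in the count files, looked up by symbol, by a rule that lists genes by their known roles. The list was drawn up with earlier results of these data known, so its shares against all tested genes are descriptions. All 32 were among the 17361 genes with enough counts to be tested. They comprised 18 enzymes of cholesterol synthesis, 5 genes of the SREBP system, 5 enzymes of fatty acid synthesis and 4 genes of sterol transport and turnover. RNA was sequenced from sorted nuclei of frozen hippocampi that stained for NeuN, a protein of neuronal nuclei, in 3 mice per group. The groups were vehicle-treated wild type (WT) mice, vehicle-treated Tg4-42 mice and caffeine-treated Tg4-42 mice, all on a C57BL/6J background and 6 months old. By the study's methods, dissected hippocampi of Tg4-42 mice were frozen from males, while female hemispheres were fixed. Its sequencing methods do not state the sex of the mice used. Tg4-42 mice carried a homozygous transgene in which the murine Thy1 promoter, active in neurons, drives human Aβ4-42 fused to the signal peptide of thyrotropin-releasing hormone. The labels call this genotype APP transgenic, although its transgene encodes Aβ4-42 and not APP, and the line is known for age-dependent loss of CA1 neurons. Caffeine was given at 300 mg/l in the drinking water for 4 months, starting at 2 months of age, and vehicle was plain tap water. No caffeine-treated WT mice were analysed here, so caffeine was compared within Tg4-42 mice. The labels give treatment only for the caffeine group, and they state n = 6 per group for nuclei where the study's methods state n = 3. Whether a library pools mice is not stated, and each library is counted here as a single mouse.

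Cells build cholesterol from acetyl-CoA. The mevalonate pathway makes isoprenoid units, these are joined to squalene and closed to lanosterol, and a last series of enzymes trims lanosterol to cholesterol. SREBPs are transcription factors held in the endoplasmic reticulum with the escort protein Scap. When membrane sterol is plentiful, Insig proteins keep them there. When it is low, they move to the Golgi, are cleaved and switch on the genes of sterol and fatty acid synthesis. The brain makes its own cholesterol because plasma lipoproteins do not cross the blood-brain barrier. In the adult brain, astrocytes and oligodendrocytes are the main producers, and neurons also turn surplus cholesterol into a hydroxylated form that can leave the brain.

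The authors deposited whole numbers of reads on the exons of each gene. Library totals ran from 9342945 to 16376922 counts. Levels are given as CPM, each gene's share of its library's counts on a fixed common scale, after scaling of the libraries by TMM, a method that matches the bulk of genes between libraries. At these depths 3 counts corresponded to between 0.19 and 0.32 CPM. Differences are log2 fold changes with standard errors (SE) from edgeR's quasi-likelihood test, fitted over all 9 libraries and all tested genes, and p-values were adjusted over all tested genes by the Benjamini-Hochberg method. A gene was called when its adjusted p was under 0.05. The 3 comparisons share groups of mice and are not independent of each other. In every group, replicates 1 and 2 were sequenced on lane 6 and replicate 3 on lane 7, as the library names show, and values by mouse are listed in the order of replicates 1, 2 and 3. The neuron markers Snap25 and Syt1 were the highest of the marker genes checked, at means of at least 2332 CPM in every group, and Rbfox3, which encodes NeuN, was at 107 CPM in WT mice, while glial markers were low but present. Because each library was made from many nuclei together, fewer cells of a type and less RNA per cell cannot be told apart.

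In WT mice the set covered a wide range of levels (plot of CPM by mouse). Per kilobase of exon, the highest was Cyp46a1, the neuronal enzyme that hydroxylates cholesterol for export, at 99.4 ± 23.2 CPM per kb (SD, n = 3). Scd2, the main fatty acid desaturase of brain, followed at 66.7 ± 3.89 CPM per kb, and then Insig2 at 59.4 ± 7.02. The spreads of Cyp46a1 and Scd2 came close to each other, and those of Scd2 and Insig2 overlapped. Among the synthesis enzymes the highest levels per kb were those of Msmo1 at 44.1 ± 4.95, Cyp51 at 36.8 ± 9.67, Hmgcs1 at 30.4 ± 1.99 and Sqle at 29.1 ± 6.16, each within 1 SD of its neighbour in this order. The lowest was Idi1, isopentenyl diphosphate isomerase, at 0.83 ± 0.31 CPM per kb, with 9 to 53 counts per library. Of all tested genes, 98.3% lay at or below Cyp46a1 per kb and 17.6% at or below Idi1. Msmo1, Cyp51, Hmgcs1 and Sqle were at or above 94.4%, 92.9%, 90.8% and 90.2% of tested genes per kb.

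**Figure D1:**
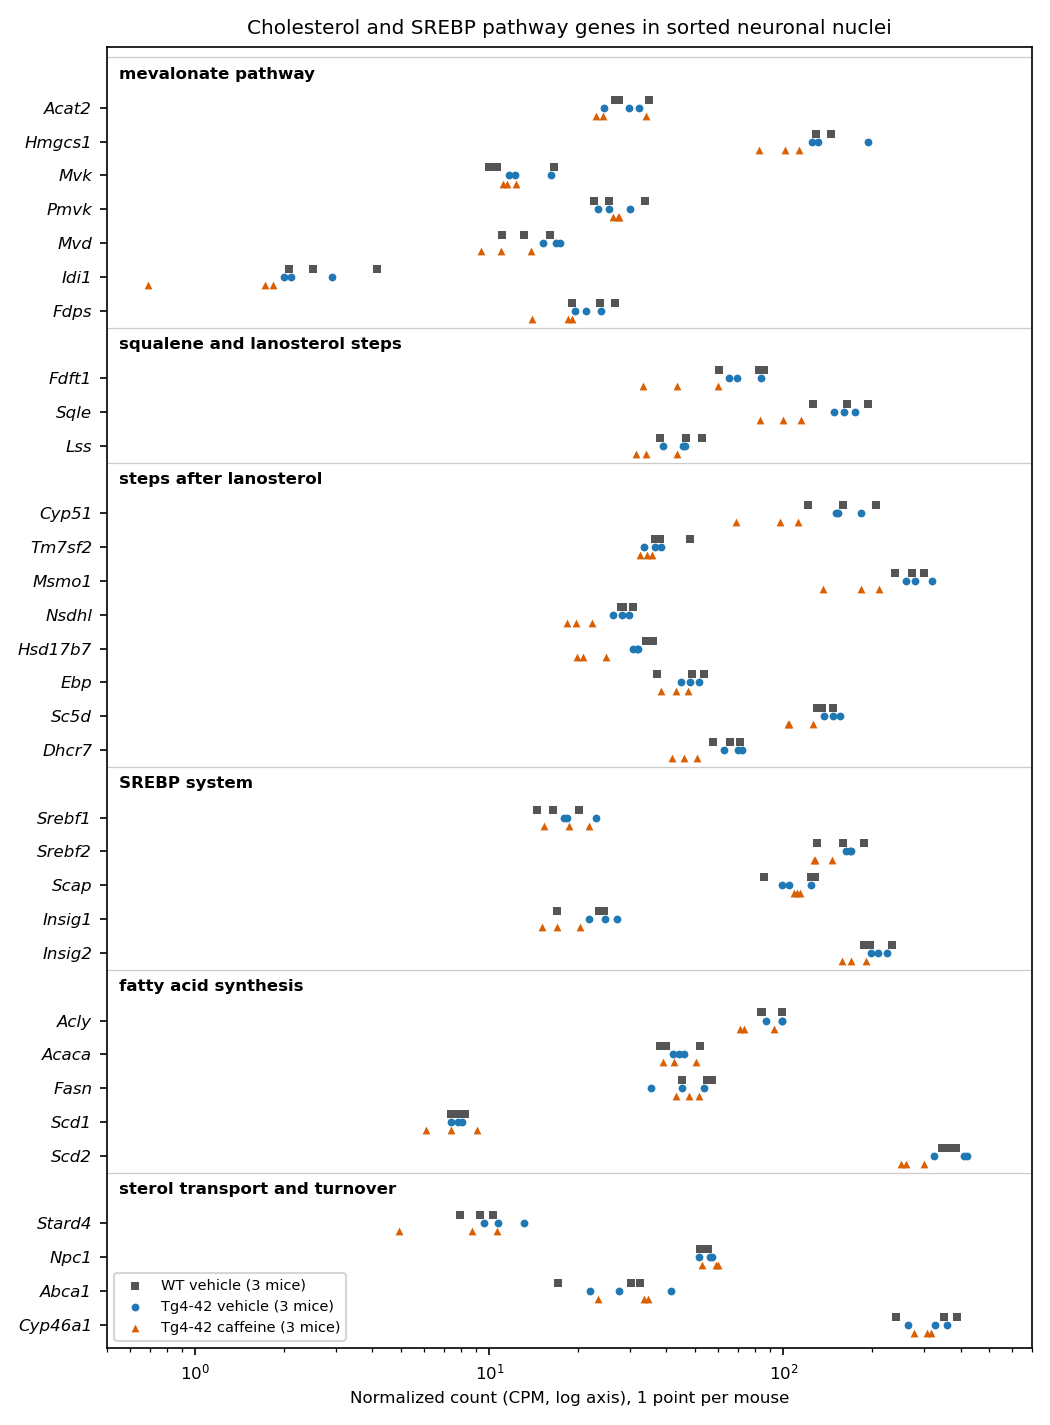
Normalized counts (CPM, log axis) of the 32 genes, grouped by role, with 1 point per mouse for 3 mice per group. In 16 genes, among them Msmo1, Sqle, Cyp51, Dhcr7 and Scd2, all 3 caffeine-treated mice lie to the left of all 3 vehicle-treated Tg4-42 mice. The same holds for 12.6% of all tested genes. WT and vehicle-treated Tg4-42 points overlap in 31 genes, while 6.73% of all tested genes do not overlap.

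The first comparison asked whether the transgene alone went with other levels of these genes. No gene of the set passed the test for the transgene, with 0 of 32 called by edgeR, DESeq2 or limma-voom and 0 at an unadjusted p under 0.05. Across all tested genes, 0.0979% were called in either direction and 2.74% had an unadjusted p under 0.05. Of the 32 fold changes, 18 were above 0 and 14 below, with a median of 0.03 against 0.00 for all tested genes. The largest log2 fold change above 0 was that of Mvd, mevalonate diphosphate decarboxylase, at a log2 fold change of 0.29 (SE 0.19, adjusted p = 1 from edgeR). Stard4, a soluble sterol carrier, had 0.28 (SE 0.25) and Srebf1, which encodes the SREBP that favours fatty acid genes, 0.22 (SE 0.18), both with an adjusted p of 1. Fasn, fatty acid synthase, had -0.23 (SE 0.15) and Tm7sf2, a sterol reductase, -0.18 (SE 0.14), again with an adjusted p of 1. Hsd17b7 was the only gene of the 32 in which the groups did not overlap, which held for 6.73% of all tested genes. Its 3 vehicle-treated Tg4-42 mice had 30.7, 31.7 and 31.96 CPM and its 3 WT mice 34.2, 35.9 and 36.1 CPM, and the log2 fold change was -0.17 (SE 0.13, adjusted p = 1 from edgeR). Summed over the 18 synthesis enzymes, the level was 1320 ± 144 CPM (SD, n = 3) in WT and 1345 ± 119 CPM (SD, n = 3) in vehicle-treated Tg4-42 mice, a difference smaller than either spread.

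The second comparison asked which levels differed after caffeine in Tg4-42 mice. Of the 18 enzymes of cholesterol synthesis, 17 had a log2 fold change below 0, against 51.5% of all tested genes. The median over the 18 was -0.50. In 12 of the 18 all 3 caffeine-treated mice were below all 3 vehicle-treated mice, which held for 12.6% of all tested genes. Msmo1, Sqle and Dhcr7 fell and passed the test over all genes, where 0.668% of all tested genes were called lower. No gene of the set was called higher. Summed over the 18 enzymes, the level was 1345 ± 119 CPM in vehicle-treated and 922 ± 138 CPM in caffeine-treated Tg4-42 mice (SD, n = 3 each), with ranges of 1259 to 1481 and 787 to 1063 CPM that did not overlap. In the same mice the mean sum of oligodendrocyte markers was 472 ± 83.1 and 314 ± 58.2 CPM, and that of dentate granule cell markers 589.9 ± 192 and 1016 ± 169 CPM (SD, n = 3 each), in vehicle-treated and caffeine-treated mice in that order. The part of such marker levels in the values of the synthesis enzymes was not tested.

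Over the whole set, 3 of 32 genes were called lower, against 0.668% of all tested genes, and 0 were called higher. At an unadjusted p under 0.05, 14 of 32 were lower, against 9.82% of all tested genes, and 0 were higher, against 7.15%. All caffeine-treated mice were below all vehicle-treated mice in 16 of 32 genes, against 12.6% of all tested genes. In 27 of 32 the fold change was below 0, against 51.5% of all tested genes, and the median was -0.30 against -0.01. DESeq2 called 10 of the 32 lower, against 3.32% of the genes it tested, and limma-voom 9, against 2.36%. With sequencing lane as a covariate edgeR called 0, although 15 of 32 still had an unadjusted p under 0.05 and lower values, and 27 fold changes were below 0.

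**Figure D2:**
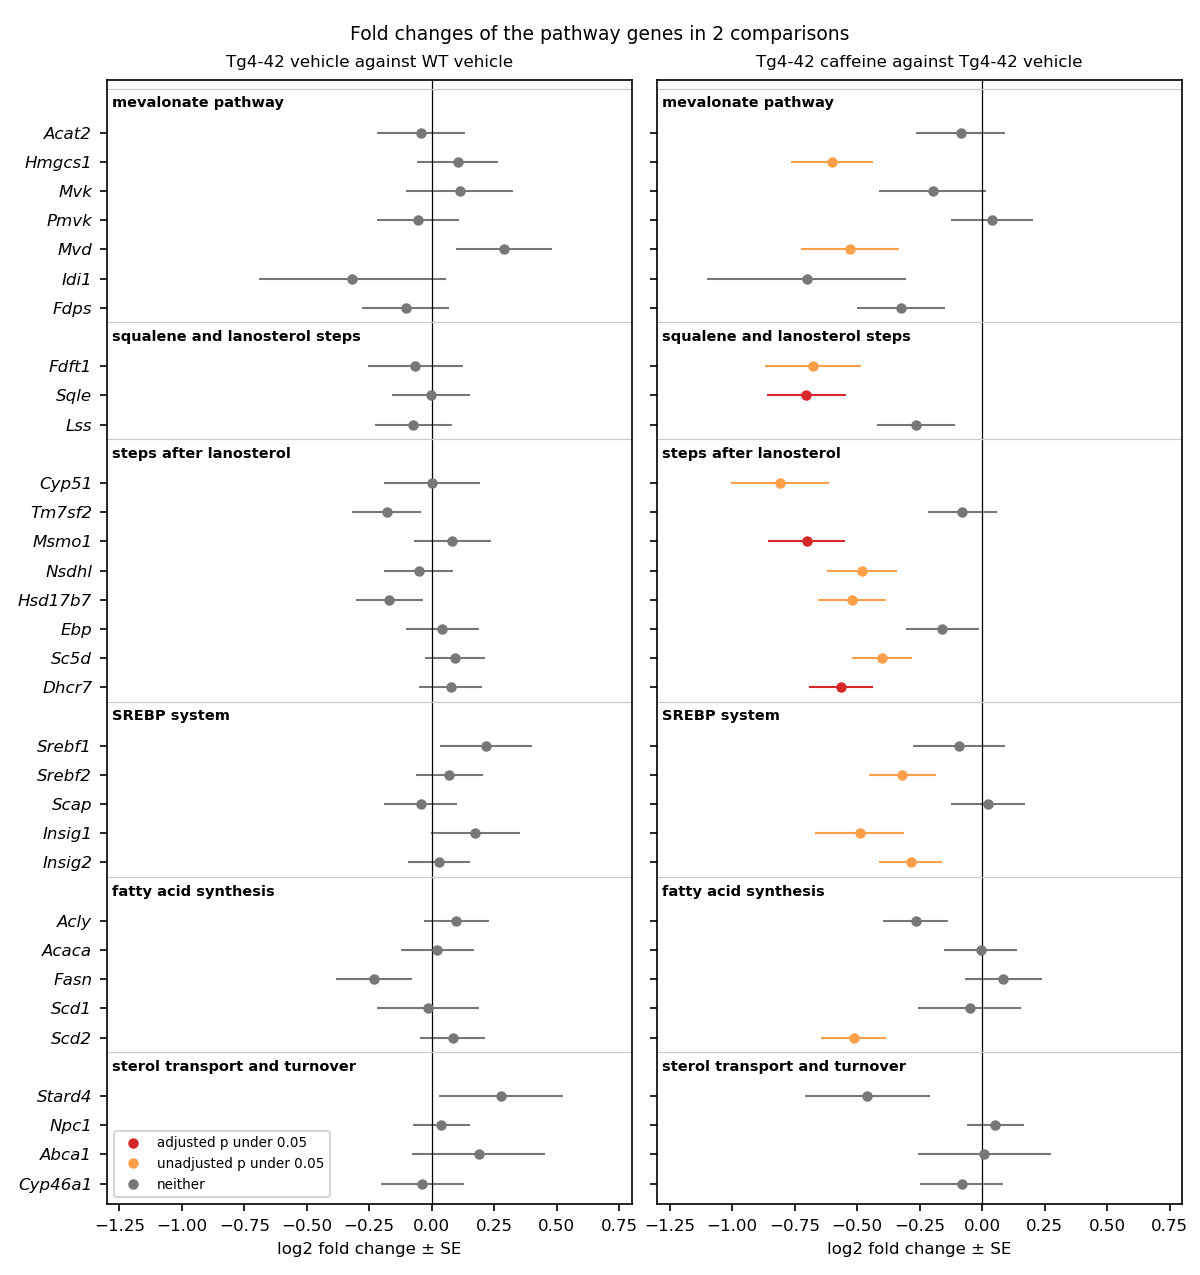
Log2 fold changes (points) with standard errors (bars) of the 32 genes in vehicle-treated Tg4-42 against WT mice (left) and in caffeine-treated against vehicle-treated Tg4-42 mice (right), from edgeR over 3 mice per group, colored by adjusted and unadjusted p. On the left the points scatter around 0, 18 above and 14 below, and on the right 27 of 32 lie below 0, with Msmo1, Sqle and Dhcr7 past the adjusted threshold.

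Early in the pathway, Hmgcs1, the cytosolic synthase that feeds the mevalonate pathway, had 131, 126 and 194 CPM in vehicle-treated and 113, 101 and 82.5 CPM in caffeine-treated Tg4-42 mice, beside 145, 145 and 129 CPM in WT mice. The caffeine-treated values lay below both other groups, and the third vehicle-treated mouse was well above the other two. The log2 fold change against vehicle was -0.60 (SE 0.16, adjusted p = 0.0896 from edgeR). Mvd, which carries out the decarboxylation that yields isopentenyl diphosphate, had 17.3, 16.8 and 15.2 CPM in vehicle-treated, 13.8, 10.9 and 9.38 CPM in caffeine-treated and 11.1, 13.1 and 16.1 CPM in WT mice. Its caffeine-treated mice were all below the vehicle-treated Tg4-42 mice but overlapped the WT mice, with a log2 fold change of -0.53 (SE 0.20, adjusted p = 0.183 from edgeR). Idi1 and Fdps, farnesyl diphosphate synthase, were also lower in every caffeine-treated mouse, at -0.70 (SE 0.40, adjusted p = 0.392) and -0.33 (SE 0.18, adjusted p = 0.367) from edgeR. Of the exon bases of Fdps, 26.7% overlapped another gene on the same strand, so its reads may have been shared. The thiolase Acat2 and the kinases Mvk and Pmvk overlapped between groups, with 28.9 ± 3.91, 13.4 ± 2.42 and 26.4 ± 3.43 CPM (SD, n = 3) in vehicle-treated and 27.2 ± 6.101, 11.7 ± 0.621 and 27.1 ± 0.684 CPM in caffeine-treated mice. Of these 7 early enzymes edgeR called 0 and 2 had an unadjusted p under 0.05, while DESeq2 and limma-voom each called Hmgcs1 lower.

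At the squalene and lanosterol steps, Sqle (ENSMUSG00000022351, chr15:59315077-59331192 of mm10, plus strand) encodes squalene epoxidase, an oxygen-dependent and rate-limiting step of the pathway. Its levels were 149, 161 and 174 CPM in vehicle-treated, 114, 99.9 and 83.3 CPM in caffeine-treated and 126, 165 and 194 CPM in WT mice. All caffeine-treated mice were below all mice of both other groups, and the fall against vehicle had a log2 fold change of -0.70 (SE 0.16, adjusted p = 0.0493 from edgeR). Fdft1, squalene synthase, had 69.6, 65.1 and 83.8 CPM in vehicle-treated, 59.8, 43.4 and 33.4 CPM in caffeine-treated and 60.2, 82.8 and 85.5 CPM in WT mice. The third caffeine-treated mouse was the lowest and the first lay just under the lowest WT mouse. Against vehicle the log2 fold change was -0.68 (SE 0.19, adjusted p = 0.104 from edgeR). Of the exon bases of Fdft1, 18.3% overlapped Ctsb on the opposite strand, and the library kit does not mark strand, so reads of the pair cannot be told apart there. Lss, lanosterol synthase, had 43.6 ± 4.07 CPM in vehicle-treated and 36.3 ± 6.195 CPM in caffeine-treated mice (SD, n = 3), with overlapping groups and a log2 fold change of -0.27 (adjusted p = 0.412 from edgeR).

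The 8 enzymes after lanosterol all had fold changes below 0, and in 6 of them the Tg4-42 groups did not overlap. Of all tested genes, 51.5% were below 0, and in 12.6% all caffeine-treated mice were below all vehicle-treated Tg4-42 mice. Msmo1 (ENSMUSG00000031604, chr8:64718139-64733792, minus strand) encodes the monooxygenase that starts the removal of the paired methyl groups of the sterol ring. Its levels were 279.9, 262 and 319 CPM in vehicle-treated, 210.5, 183 and 136 CPM in caffeine-treated and 239.8, 273 and 300.5 CPM in WT mice. The lowest vehicle-treated mouse was above the highest caffeine-treated mouse, and the fall had a log2 fold change of -0.70 (SE 0.15, adjusted p = 0.0469 from edgeR). Dhcr7 (ENSMUSG00000058454, chr7:143823145-143848410, plus strand) encodes a sterol reductase that yields cholesterol itself. Its levels were 62.8, 70.01 and 72.03 CPM in vehicle-treated, 50.9, 45.9 and 41.8 CPM in caffeine-treated and 57.5, 70.9 and 66.01 CPM in WT mice. The caffeine-treated mice were again below all others, and the fall had a log2 fold change of -0.56 (SE 0.13, adjusted p = 0.0499 from edgeR).

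Cyp51, the cytochrome P450 that takes the first methyl group off lanosterol, had the largest fold change of the set. It had 153, 151 and 184 CPM in vehicle-treated, 112, 97.3 and 69.2 CPM in caffeine-treated and 121, 159.9 and 206 CPM in WT mice. The WT mice were spread more widely than either Tg4-42 group, and the caffeine-treated mice were below all other mice. The log2 fold change against vehicle was -0.81 (SE 0.20, adjusted p = 0.069 from edgeR), and DESeq2 and limma-voom called the gene. Nsdhl and Hsd17b7 work with Msmo1 in the same demethylation, as the dehydrogenase and the ketone reductase. Nsdhl had 29.8, 28.2 and 26.3 CPM in vehicle-treated, 19.6, 22.3 and 18.3 CPM in caffeine-treated and 28.1, 30.8 and 28.4 CPM in WT mice. Its caffeine-treated values were separate from both other groups, at -0.48 (SE 0.14, adjusted p = 0.106 from edgeR). Hsd17b7 was at 24.99, 20.9 and 19.9 CPM in caffeine-treated mice, under every vehicle-treated and WT value given above, with a log2 fold change against vehicle of -0.52 (SE 0.14, adjusted p = 0.0802 from edgeR). Sc5d, a sterol desaturase one step before Dhcr7, had 148, 137 and 156 CPM in vehicle-treated, 126, 104 and 104 CPM in caffeine-treated and 130.1, 136 and 148 CPM in WT mice. The Tg4-42 groups were close but did not overlap, and the log2 fold change was -0.40 (SE 0.12, adjusted p = 0.113 from edgeR). The reductase Tm7sf2 and the isomerase Ebp differed least, at -0.08 (SE 0.14, adjusted p = 0.809) and -0.16 (SE 0.15, adjusted p = 0.627) from edgeR. Exons of Tm7sf2 overlapped Vps51 over 12.1% of their bases.

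The calls of Msmo1, Sqle and Dhcr7 depended on single mice. Without vehicle-treated replicate 1 or 3, or caffeine-treated replicate 2 or 3, 0 genes of the set were called, without vehicle-treated replicate 2 only Msmo1, and without caffeine-treated replicate 1 there were 7. The log2 fold change of Msmo1 over these 6 fits lay between -0.85 and -0.54, that of Sqle between -0.82 and -0.59 and that of Dhcr7 between -0.64 and -0.50.

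**Figure D3:**
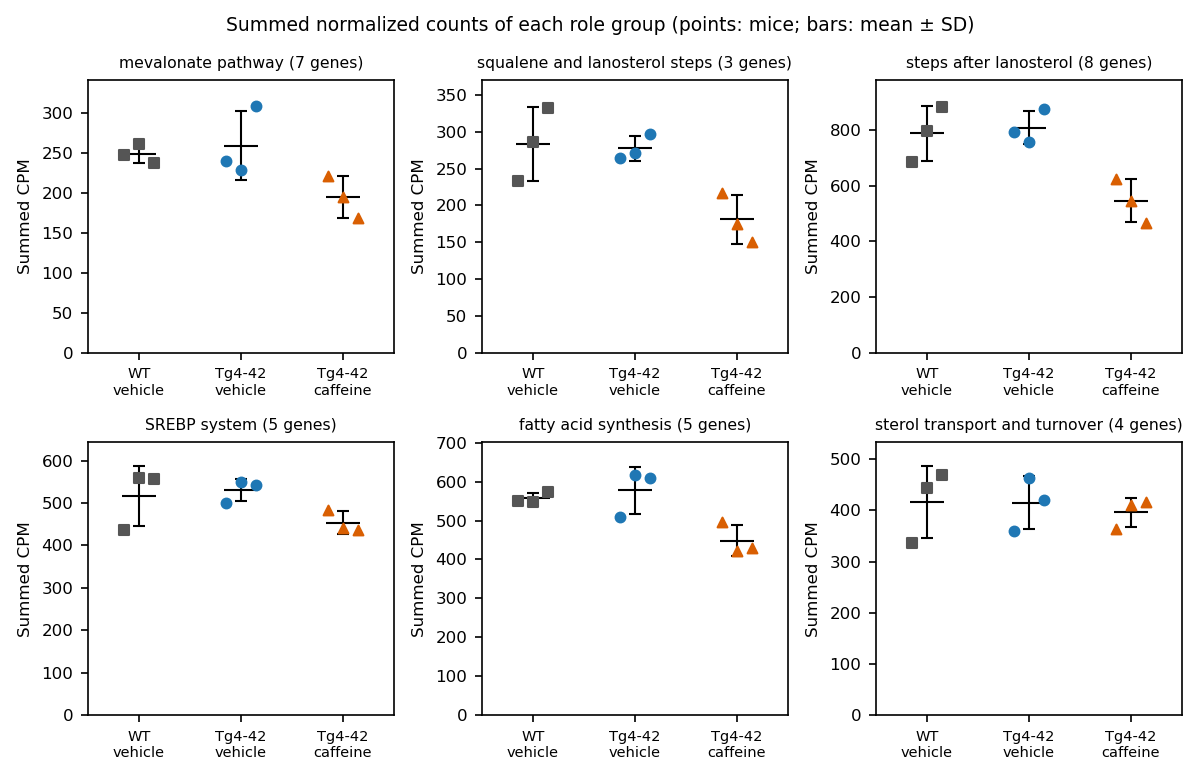
Summed CPM of the 6 role groups in each mouse (points) with the mean and SD of 3 mice per group (bars). The 3 groups of synthesis enzymes and the fatty acid and SREBP groups have caffeine-treated sums below all vehicle-treated Tg4-42 sums, while those of sterol transport and turnover overlap. Most of the fatty acid sum is Scd2, with 386 of 578 CPM in vehicle-treated and 271 of 449 CPM in caffeine-treated Tg4-42 mice. Acly, Acaca, Fasn and Scd1 each overlap between these groups.

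In the SREBP system, Srebf2, which encodes the SREBP that favours cholesterol genes, had 163, 169 and 168 CPM in vehicle-treated, 147, 128 and 127 CPM in caffeine-treated and 129.7, 159 and 188 CPM in WT mice. The caffeine-treated values were below the tight vehicle-treated values but overlapped WT, where the first mouse was as low. Its log2 fold change against vehicle was -0.32 (SE 0.13, adjusted p = 0.242 from edgeR). Insig1, itself a known SREBP target, had 21.8, 24.6 and 27.1 CPM in vehicle-treated, 20.4, 16.9 and 15.1 CPM in caffeine-treated and 16.9, 24.6 and 23.6 CPM in WT mice. Here too the caffeine-treated mice lay under all vehicle-treated Tg4-42 mice and overlapped WT, at -0.49 (SE 0.18, adjusted p = 0.18 from edgeR). Insig2, the more abundant of the pair, had 198, 209 and 224 CPM in vehicle-treated, 191, 169 and 158 CPM in caffeine-treated and 188, 234 and 197 CPM in WT mice. The gap between the Tg4-42 groups was narrow, and the log2 fold change was -0.29 (SE 0.12, adjusted p = 0.259 from edgeR). Srebf1 and Scap overlapped between groups, at 19.8 ± 2.804 and 109 ± 13.4 CPM in vehicle-treated and 18.6 ± 3.23 and 111 ± 2.73 CPM in caffeine-treated mice (SD, n = 3). All 3 genes with an unadjusted p under 0.05 in this group were lower, and edgeR, DESeq2 and limma-voom called 0 of the 5.

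Of the fatty acid enzymes, Scd2 had 326, 412 and 421 CPM in vehicle-treated, 300, 261 and 251 CPM in caffeine-treated and 345, 361 and 387 CPM in WT mice. The caffeine-treated mice were below all others, and the first vehicle-treated mouse was closest to them. The log2 fold change was -0.51 (SE 0.13, adjusted p = 0.0749 from edgeR), and DESeq2 and limma-voom called the gene. Acly, which makes the acetyl-CoA that both pathways start from, had a log2 fold change of -0.27 (SE 0.13, adjusted p = 0.313 from edgeR), with overlapping groups. The carboxylase Acaca, the synthase Fasn and the desaturase Scd1 also overlapped, at 43.96 ± 1.97, 44.7 ± 9.04 and 7.75 ± 0.3502 CPM in vehicle-treated and 43.9 ± 5.97, 47.5 ± 4.27 and 7.502 ± 1.48 CPM in caffeine-treated mice (SD, n = 3).

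In sterol transport and turnover, Cyp46a1 had 265, 361 and 328 CPM in vehicle-treated, 277, 309 and 316 CPM in caffeine-treated and 241, 351 and 388 CPM in WT mice, so that the caffeine-treated values lay within the range of both other groups. Stard4, the sterol carrier, was at 11.1 ± 1.799 CPM in vehicle-treated and 8.07 ± 2.89 CPM in caffeine-treated mice (SD, n = 3), with a log2 fold change of -0.46 (SE 0.25, adjusted p = 0.375 from edgeR). Npc1, which lets cholesterol out of lysosomes, and Abca1, which exports it from the cell, had 55.1 ± 2.99 and 30.3 ± 10.03 CPM in vehicle-treated and 57.1 ± 3.95 and 30.6 ± 6.19 CPM in caffeine-treated mice. Of these 4 genes, edgeR, DESeq2 and limma-voom called 0, and 0 had an unadjusted p under 0.05.

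Mice within the caffeine-treated group differed in the size of the shift. Relative to the mean of the vehicle-treated Tg4-42 mice, the median log2 difference over the 18 enzymes was -0.26, -0.48 and -0.64 in caffeine-treated replicates 1, 2 and 3, and 16, 17 and 17 of the 18 enzymes were below that mean. Vehicle-treated Tg4-42 mice themselves were at -0.01, -0.10 and 0.09, and WT mice at -0.11, 0.02 and 0.05. Over all tested genes the same median was between -0.01 and 0.01 in every library. Replicate 3, the furthest from vehicle, was the caffeine-treated mouse of lane 7. Within lane 6, with 2 mice per group, 28 of 32 fold changes were below 0 with a median of -0.25, 7 genes had an unadjusted p under 0.05, all lower, and 0 were called. On lane 7, with 1 mouse per group and so no test, 26 of 32 were below 0 with a median of -0.49.

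The third comparison set caffeine-treated Tg4-42 mice against WT mice, which differed from them in both genotype and treatment. All 18 synthesis enzymes had fold changes below 0, against 51.5% of all tested genes, with a median of -0.46. Of them, Hsd17b7 fell and was called. Of the 32 genes, 1 was called lower, against 0.271% of all tested genes, and 0 higher. At an unadjusted p under 0.05, 13 were lower, against 8.65% of all tested genes, and 0 were higher, against 6.78%. All caffeine-treated mice were below all WT mice in 12 of 32, against 9.67% of all tested genes. The median over the set was -0.25 against -0.01 for all tested genes.

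Hsd17b7 (ENSMUSG00000026675, chr1:169949535-169969241, minus strand) was lowest in caffeine-treated mice, intermediate in vehicle-treated Tg4-42 mice and highest in WT mice, with no overlap between any pair of groups. The step from WT to vehicle-treated Tg4-42 mice, at -0.17 (SE 0.13), did not pass the test, and 6.73% of all tested genes did not overlap there. In caffeine-treated mice the log2 fold change of Hsd17b7 against WT was -0.69 (SE 0.14, adjusted p = 0.0362 from edgeR), and it ranged from -0.80 to -0.63 over the fits that left out 1 mouse. That call was lost without WT replicate 1, 2 or 3, and without caffeine-treated replicate 2 or 3, and it held without caffeine-treated replicate 1. It was also lost with lane as a covariate (adjusted p = 0.0609 from edgeR), in lane 6 mice only (adjusted p = 0.535) and in a fit of only the 2 groups (adjusted p = 0.0546), and the fold change stayed below 0 in each. The remaining enzymes with an unadjusted p under 0.05 were Cyp51 at -0.81 (SE 0.20, adjusted p = 0.0795), Fdft1 at -0.74 (0.19, 0.0926), Sqle at -0.70 (0.16, 0.0642), Msmo1 at -0.62 (0.15, 0.0823), Nsdhl at -0.53 (0.14, 0.0925) and Dhcr7 at -0.49 (0.13, 0.0907), with SE and adjusted p from edgeR in that order. The others were Idi1 at -1.02 (adjusted p = 0.22 from edgeR), Hmgcs1 at -0.50, Fdps at -0.43, Lss at -0.34 and Sc5d at -0.31, whose adjusted p ran from 0.164 to 0.308. Scd2, at -0.43 (SE 0.13, adjusted p = 0.138 from edgeR), was the only gene outside the synthesis enzymes with an unadjusted p under 0.05. In the SREBP system and in sterol transport and turnover 0 genes reached that level, and edgeR, DESeq2 and limma-voom called 0.

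Further genes of these pathways were taken from 4 lists of 53 genes, of which 51 were tested. In caffeine-treated against vehicle-treated Tg4-42 mice edgeR called 0 of them, DESeq2 3 and limma-voom 4, all lower, beside the 3.32% and 2.36% of all genes these tools called lower. At an unadjusted p under 0.05, 8 were lower, against 9.82% of all tested genes, and 3 higher, against 7.15%. In 38 of 51 the fold change was below 0, against 51.5% of all tested genes, with a median of -0.08 against -0.01. The synthesis and isoprenoid list, whose isoprenoid genes lead toward ubiquinone, dolichol and protein prenylation, had 4 of 11 fold changes above 0. Erlin2, part of a complex of the endoplasmic reticulum that degrades sterol-regulated proteins, led the SREBP processing list at -0.45 (SE 0.12, adjusted p = 0.0885 from edgeR). Fads2, a desaturase of polyunsaturated fatty acids, led the fatty acid list at -0.62 (SE 0.19, adjusted p = 0.115 from edgeR). Nceh1, a cholesterol ester hydrolase, led the transport and sensing list, with 318 ± 31.9 CPM in vehicle-treated and 217 ± 33.3 CPM in caffeine-treated mice (SD, n = 3) and a log2 fold change of -0.56 (SE 0.13, adjusted p = 0.0585 from edgeR). Between vehicle-treated Tg4-42 and WT mice edgeR, DESeq2 and limma-voom called 0 of the 51, and 3 had an unadjusted p under 0.05, all lower, where 2.74% of all tested genes did in either direction. Between caffeine-treated Tg4-42 and WT mice edgeR and limma-voom called 0 and DESeq2 5, all lower, against 2.64% of all genes for DESeq2 and 0.518% for limma-voom. At an unadjusted p under 0.05, 11 were lower, against 8.65% of all tested genes, and 1 higher, against 6.78%.

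Cell type markers also differed between caffeine-treated and vehicle-treated Tg4-42 mice (plot of marker sums). Of 8 oligodendrocyte markers, all had a fold change below 0, and their summed level was 472 ± 83.1 CPM (SD, n = 3) in vehicle-treated and 314 ± 58.2 CPM in caffeine-treated Tg4-42 mice, with overlapping ranges of 376 to 529.9 and 266 to 379 CPM. Of 8 astrocyte markers, 7 were below 0, with sums of 516 ± 70.8 and 399.7 ± 58.04 CPM and ranges of 436 to 569.9 and 350.3 to 464 CPM. All 7 microglia markers were below 0, with sums of 66.6 ± 13.8 and 46.2 ± 5.45 CPM and ranges of 51.1 to 77.5 and 42.7 to 52.5 CPM. The 4 markers of oligodendrocyte precursors had close sums, at 18.96 ± 1.53 and 18.66 ± 3.15 CPM. Of these, 3 had a fold change below 0 and 1 above, and 0 had an unadjusted p under 0.05. Called glial markers numbered 0 with edgeR, while 5 oligodendrocyte, 5 astrocyte and 2 microglia markers had an unadjusted p under 0.05 and lower values. DESeq2 called 4, 2 and 0 of them and limma-voom 5, 4 and 1. Of all tested genes, edgeR called 0.668% lower, and 9.82% were lower at an unadjusted p under 0.05. Among all genes they tested, DESeq2 called 3.32% lower and limma-voom 2.36%. No defining glial marker was at 0 in any library, whereas the 4 endothelial markers had at most 25 counts.

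The 8 general neuron markers summed to 8846 ± 749 CPM in vehicle-treated and 7496 ± 667 CPM in caffeine-treated Tg4-42 mice (SD, n = 3), with overlapping ranges of 8115 to 9611 and 7030 to 8260 CPM and 4 of 8 fold changes below 0. Of them edgeR called 0, while 2 were lower and 2 higher at an unadjusted p under 0.05, and DESeq2 and limma-voom each called Syt1 lower. Among all tested genes, 9.82% were lower and 7.15% higher at that unadjusted p. Markers of neuronal subtypes were compared in the same mice. All 9 dentate granule cell markers had a fold change above 0, and Plk5 and Stxbp6 were called higher, with sums of 589.9 ± 192 CPM in vehicle-treated and 1016 ± 169 CPM in caffeine-treated Tg4-42 mice and ranges of 385 to 766 and 864 to 1198 CPM that did not overlap. The CA1 and CA3 pyramidal markers summed to 1857 ± 102 and 1456 ± 134 CPM, with ranges of 1740 to 1923 and 1321 to 1590 CPM, 5 of 8 fold changes below 0 and Dkk3 called lower. The interneuron markers summed to 1174 ± 274 and 784 ± 90.01 CPM, with ranges of 943 to 1477 and 709.8 to 884 CPM, 8 of 8 below 0 and Slc32a1 called lower. Of all 17361 tested genes, edgeR called 37 higher and 116 lower in this comparison, and 51.5% had a fold change below 0.

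**Figure D4:**
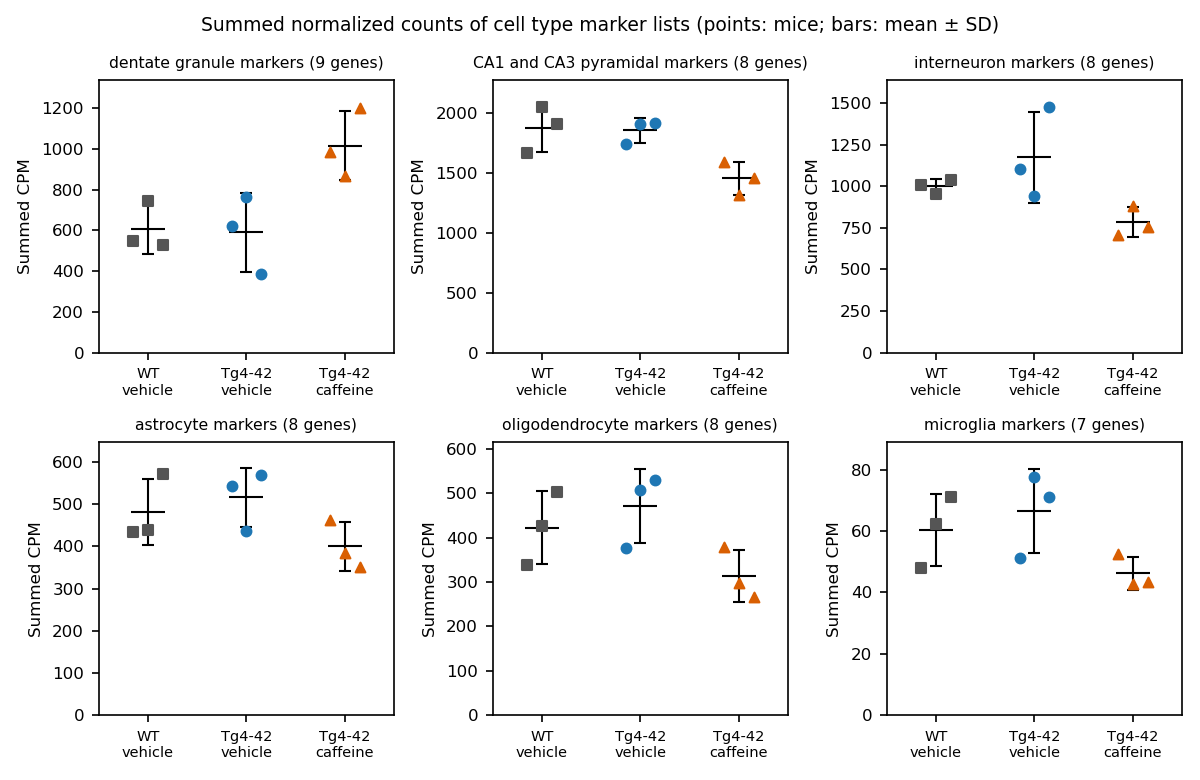
Summed CPM of 6 cell type marker lists in each mouse (points) with mean and SD of 3 mice per group (bars). Dentate granule cell sums of caffeine-treated mice lie above those of all other mice, pyramidal and interneuron sums lie below, and the 3 glial sums are lower on average, with overlapping ranges for oligodendrocyte and astrocyte markers and for microglia markers.

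Promoter windows from RefSeq, on GRCm38.p6, from 250 bases before to 50 bases after each gene's start, matched 25 of the 32 genes. Fdps, Fdft1, Sqle, Scd1, Scd2, Stard4 and Npc1 had no window. They were searched on both strands for the letters of a sterol regulatory element (TCACNCCAC), the site that SREBPs read, and of the CCAAT box (CCAAT) and the E box (CACGTG), the sites of their usual partner NF-Y and of basic helix-loop-helix factors. The first was found in 1 of 25 genes, Hmgcs1, and in 1.44% of 27025 genes with a window. Only these exact letters were searched, so sites spelled otherwise or outside the window would be missed. CCAAT was found in 21 of 25, against 41.1% of all genes with a window, and CACGTG in 6 of 25, against 8.09%. No pair of these motifs shares bases in the stretches shown. The stretches printed next, picked after the values were seen, come from 5 genes with lower values after caffeine at an unadjusted p under 0.05. They show matches to the 3 motifs outside annotated exons, though not every match in a window. Each runs 5′ to 3′ on the gene's own strand, upstream of the RefSeq start, with the motif letters, or their reverse complement, in capitals.
Hmgcs1, chr13:119690171-119690315, plus strand: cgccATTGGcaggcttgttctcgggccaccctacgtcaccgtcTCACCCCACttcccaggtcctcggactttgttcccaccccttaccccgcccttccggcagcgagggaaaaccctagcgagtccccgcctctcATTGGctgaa
Nsdhl, chrX:72918412-72918520, plus strand: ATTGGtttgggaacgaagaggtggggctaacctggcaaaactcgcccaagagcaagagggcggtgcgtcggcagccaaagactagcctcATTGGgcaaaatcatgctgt
Hsd17b7, chr1:169969266-169969375, minus strand: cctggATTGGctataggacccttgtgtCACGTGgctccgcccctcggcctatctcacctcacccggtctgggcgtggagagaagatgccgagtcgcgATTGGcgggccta
Sc5d, chr9:42264311-42264410, minus strand: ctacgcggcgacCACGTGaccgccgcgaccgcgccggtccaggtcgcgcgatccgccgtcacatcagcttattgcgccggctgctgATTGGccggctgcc
Insig1, chr5:28071192-28071321, plus strand: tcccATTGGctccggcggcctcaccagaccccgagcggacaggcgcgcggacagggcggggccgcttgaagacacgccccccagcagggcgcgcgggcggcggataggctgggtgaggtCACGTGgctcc
Hmgcs1, the early synthase, holds the sterol regulatory element between a pair of CCAAT boxes, both as ATTGG on the strand shown. Nsdhl shows a pair of CCAAT boxes in the same orientation, and its window holds no CACGTG. Hsd17b7, called against WT, shows an E box between a pair of CCAAT boxes, and Sc5d and Insig1 show a single match to each of these. The whole windows of Hmgcs1, Nsdhl and Hsd17b7 held 4, 4 and 3 CCAAT matches, so the pairs are only those within the stretches shown. All matches describe letters in the windows, and no binding was measured.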

How the data were processed

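RNA of sorted NeuN-positive hippocampal nuclei was sequenced in 3 mice per group. Per the labels and the study's methods, the authors made libraries with a full-length amplification kit that does not mark strand, aligned single-end reads of 50 bases to mm10 with STAR and deposited the counts of reads on the exons of each gene from featureCounts, without normalization. The strand and multi-mapping settings of the counting are not given in the sources used here. Symbols and positions came from GENCODE M21 for 48349 of 48709 genes. Counts were analysed in R 4.3.3 with edgeR 4.0.16. Genes passed filterByExpr over the 3 groups (minimum count 10, minimum total 15), libraries were scaled by TMM, and groups were compared by contrasts of the robust quasi-likelihood fit of all 9 libraries without covariates, with Benjamini-Hochberg adjustment over all tested genes and a threshold of 0.05. SE came from the F statistic. Levels per kb used merged exon length. The method was tested on simulated data. The floor of 3 counts covers counting error only. Nothing in the labels pairs mice between groups, and replicate numbers follow accession order. P-values measure the spread between these mice, or between pools of mice if libraries were pooled, which is not stated. Pairs of mice of the same group differed by more than sampling noise, with log2 CPM correlated at 0.978 to 0.985 across genes.

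Per-mouse values are given for genes called in any comparison, for those with an unadjusted p under 0.05 after caffeine, and for the gene of highest mean CPM in each role group. Of the other pathway lists, the gene of smallest p in each is named, except for 1 that is not reported here. The members and lists were chosen with earlier results of these data known. Alternatives were DESeq2 1.42.0, RLE scaling, no filter or a mean of at least 50 counts, and lane as a covariate. The limma-voom fits (limma 3.58.1) used sample quality weights, so that mice did not count equally. Further alternatives were edgeR's version 4 method, corrections for GC content and exon length, only the 2 groups compared, and each mouse left out. A fit of lane 6 mice only was added after seeing the data.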

Additional observations from a re-analysis of the deposited data

How the results depend on the processing

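Between vehicle-treated Tg4-42 and WT mice, 0 of 32 genes were called in every alternative, and the number of all genes called moved from 17 to 74 without the filter on low counts. For caffeine against vehicle in Tg4-42 mice, where 3 of 32 and 153 of all genes were called, the counts of the set and of all genes were 10 and 751 with DESeq2, 7 and 987 without the filter, 9 and 587 with limma-voom, and 0 and 9 with lane as a covariate. They were 0 and 0 in lane 6 mice only, a setting chosen after seeing the data. The set's count was 1 with RLE scaling and with correction for exon length, and correction for GC content gave 262 genes in all. Of all genes called, 24.2% were higher as reported, 37.7% with DESeq2, 36.2% without the filter and 35.5% with correction for GC content. With each mouse left out in turn, 0 to 7 of the set and 0 to 341 of all genes were called. For caffeine-treated Tg4-42 against WT mice, where 1 of 32 and 72 of all genes were called, the counts were 8 and 553 with DESeq2, 7 and 860 without the filter, 3 and 125 with limma-voom, 2 and 153 with correction for GC content, 0 and 42 with lane as a covariate, and 0 and 17 in lane 6 mice only. Fitting only these 2 groups gave 0 of the set. With each mouse left out, 0 to 5 of the set and 16 to 287 of all genes were called. The cause of these moves was not tested, except that fits of lane 6 mice and of left-out mice hold fewer samples. Directions were steadier than calls: in the 17 alternatives of the caffeine comparison 22 of 32 genes kept their sign in every fit, and the 10 that changed it had log2 fold changes of at most 0.20 in size and unadjusted p of at least 0.369. For vehicle-treated Tg4-42 against WT mice 12 of 32 kept their sign in every fit, and for caffeine-treated Tg4-42 against WT mice 21 of 32. No fold change that the report prints for a gene of the set reversed, and those of the other pathway genes were not followed. The set's median for vehicle-treated Tg4-42 against WT mice turned from 0.03 to -0.02 without WT replicate 1 or without vehicle-treated Tg4-42 replicate 3. No paired analysis was possible because the labels give no replicate numbers that pair mice between groups.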
